A study of Mus musculus with 29 samples.

Results

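The genes described here encode the subunits of the proteasome. They are all genes in the deposited liver count tables whose GENCODE M21 symbol starts with Psma, Psmb, Psmc, Psmd or Psme followed by a number, with pseudogenes left out. The rule found 45 genes among 31053 identifiers, none of them annotated as a pseudogene. Of these, 41 passed the filter on low counts and were tested. Livers came from 29 male mice kept on a C57BL/6 background, in 6 groups. The 3 genotypes, each sampled at 6 and at 36 weeks of age, were wild type, PiZ and PiZ/Chop-/-. There were 5 livers per group, and 4 for the older wild-type mice. The PiZ transgene encodes human alpha-1-antitrypsin of the Z type, and PiZ/Chop-/- mice carry this transgene and are labelled as lacking Chop, the stress-induced transcription factor made from the gene Ddit3. The labels give neither the promoter of the transgene nor litters, and no group lacked Chop without the transgene. The labels call the animals biological replicates.

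The proteasome degrades proteins that carry ubiquitin chains. Its 20S core is a barrel of alpha rings, which form the gate, around beta rings, which hold the protease sites of Psmb5, Psmb6 and Psmb7. The 19S particle caps the core: its ATPase ring (the Psmc subunits) unfolds substrates, its base and lid (most Psmd subunits) bind and strip ubiquitin, and the chaperones Psmd5, Psmd9 and Psmd10 help to build it. Interferon induces Psmb8, Psmb9 and Psmb10, which replace the constitutive protease subunits to form the immunoproteasome, and Psme1 and Psme2, which form the PA28 activator. In liver the Z variant of alpha-1-antitrypsin misfolds in the endoplasmic reticulum (ER) of hepatocytes, and part of it is sent back to the cytosol for degradation by the proteasome. When proteasome activity is short, the transcription factor Nfe2l1 (also called Nrf1) is known to switch on subunit genes together through antioxidant response elements.

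Depth ranged from 2310208 to 3851983 reads assigned to genes per library. Values below are in CPM, the reads of a gene scaled to a common library size, and a floor of 3 counts corresponded to between 0.813 and 1.42 CPM. Ddit3 lay between 81.9 and 104 CPM in PiZ and between 0 and 10.7 CPM in PiZ/Chop-/- at 6 weeks, and between 33.6 and 64.1 CPM and between 2.74 and 6.69 CPM at 36 weeks. In wild type it lay between 6.62 and 15.1 CPM at 6 weeks, a range that holds the highest PiZ/Chop-/- liver, and between 15.2 and 17.2 CPM at 36 weeks. Where the deleted part of the gene lies relative to the 3′ reads is not given in the sources used here. Hepatocyte markers summed to between 30581 and 76603 CPM in all libraries. The wild-type libraries at 6 weeks were uneven: replicates 1 and 2 held 4488 and 5221 CPM of 14 skeletal muscle markers, against between 34.1 and 311 CPM in the other 3. Among the other groups, PiZ/Chop-/- replicate 3 at 36 weeks held 1559.9 CPM of these markers. Replicate 2 also had 43.9% of its uniquely aligned reads outside genes, and it was the lowest of its group for 28 of the 41 tested members and the highest for 10. Replicates 5 and 4 had 31.1% and 23.4% outside genes, against 14.4% to 19.6% in PiZ and 11.95% to 17.4% in PiZ/Chop-/- at 6 weeks. Counts for comparisons with that group are therefore also given without the muscle-rich replicates 1 and 2, and without replicates 2 and 5, which had the most reads outside genes. Both choices were made after the data were seen, and the part of reads outside genes in the results was not tested further.

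At 6 weeks the summed 20S core genes were higher in both transgenic genotypes than in wild type, and at 36 weeks the groups lay closer together. The summed level of the 20S core genes (16 genes of the alpha and constitutive beta rings) was 1950.5, 1165, 1938, 1773 and 1737 CPM in the wild-type animals at 6 weeks. It was 2515, 2478, 2291, 2875 and 2633 CPM in PiZ and 2191, 2242, 2409.5, 2479.9 and 2545 CPM in PiZ/Chop-/- at that age. Every transgenic animal at 6 weeks thus lay above every wild-type animal. At 36 weeks the 20S sum lay between 1639 and 1898 CPM in wild type, from 1712 to 2141 CPM in PiZ and from 1692 to 2376 CPM in PiZ/Chop-/-, and these ranges overlapped. The 17 subunit genes of the 19S particle summed to between 3017 and 3559 CPM in wild type and between 4094 and 4636 CPM in PiZ at 6 weeks. In PiZ/Chop-/- at 6 weeks they summed to between 3445 and 4232 CPM, which overlapped both other genotypes. In bulk liver, fewer cells of a type and less RNA per cell cannot be told apart.

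**Figure D1:**
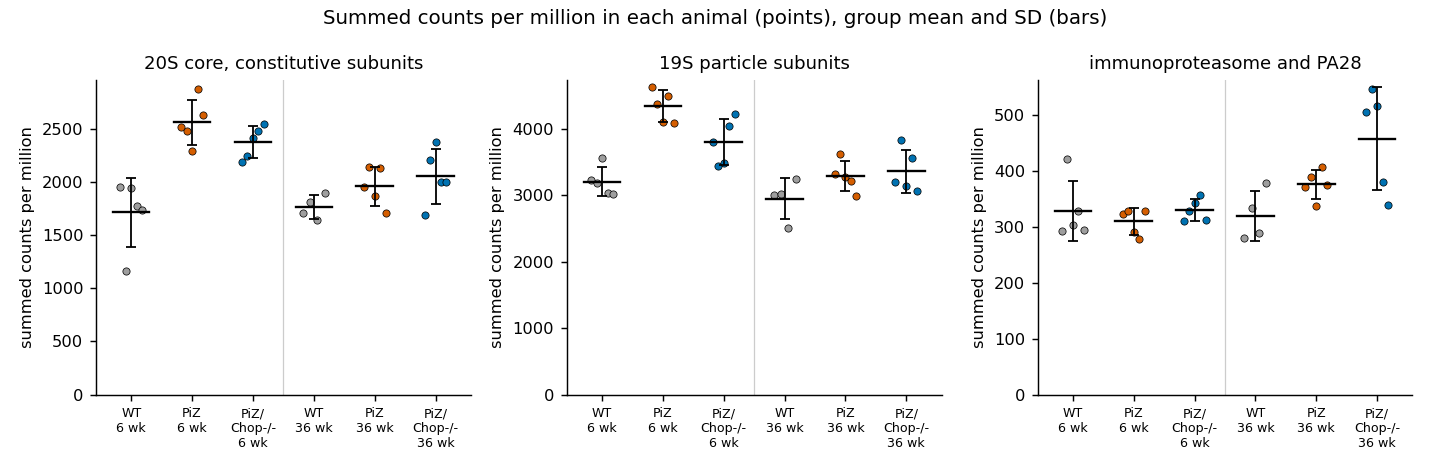
Summed CPM (vertical axis) of the constitutive 20S core genes, the 19S subunit genes and the 5 immunoproteasome and PA28 genes in each of the 29 livers (points), by genotype and age, with the group mean (line) and SD (bar). The PiZ livers at 6 weeks lay between 2291 and 2875 CPM for the 20S core, above all wild-type livers, and the immunoproteasome sum reached its highest values, 505, 548 and 517 CPM, in 3 PiZ/Chop-/- livers at 36 weeks.

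In PiZ against wild type at 6 weeks, 19 of the 41 tested members rose and 0 fell (edgeR quasi-likelihood test, Benjamini-Hochberg adjusted p below 0.05 over 10877 genes). Of all tested genes, 12.4% were called higher and 13.3% lower in this comparison. The median log2 fold change was 0.43 over the members and -0.03 over all genes. CPM ranges that did not overlap, with every PiZ animal above every wild-type animal, were found for 15 members, against 8.29% of all tested genes, and all 15 were among the 19. With both muscle-rich wild-type libraries left out, 16 members were called, all higher. In that fit 10.3% of all genes tested were called higher and 10.1% lower. Without wild-type replicates 2 and 5, 14 were called, all higher, beside 8.88% of all genes tested in that fit; 12 of these were among the 19, and Psmd7 and Psma4 were added.

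In the beta rings 6 of 7 tested constitutive members rose. Psmb6, which carries the caspase-like protease site, was at 169, 69.5, 189, 154 and 139 CPM in wild type and at 275, 239, 254, 315 and 250.5 CPM in PiZ. Every PiZ animal lay above the highest wild-type animal, and the log2 fold change was 0.88 (SE 0.175, adjusted p = 0.000368). Psmb5, the chymotrypsin-like protease and the target of proteasome inhibitor drugs, was at 29, 15.1, 30.0, 23.2 and 29.3 CPM in wild type and at 35.6, 37.4, 42.6, 68.7 and 40.6 CPM in PiZ. Its ranges did not overlap either, and its log2 fold change of 0.82 (SE 0.302) passed narrowly, with an adjusted p of 0.0444 that was lost in 6 of 10 fits that each left out 1 animal (wild-type replicates 2, 4 or 5, or PiZ replicates 3, 4 or 5). Psmb7, the trypsin-like protease, was at 108, 58.7, 153, 133 and 97.7 CPM in wild type and at 163, 134, 133, 135 and 178 CPM in PiZ, with overlapping ranges and no call (log2 fold change 0.43, SE 0.177, adjusted p = 0.0716). Psmb7 passed without wild-type replicate 3 (0.59, adjusted p = 0.0153) or without replicate 4 (0.51, adjusted p = 0.0449). Reads of Psmb7 are uncertain, because the last 300 bases of its transcript overlap Nek6 on the other strand and the strand setting of the counting is not given in the sources used here. The noncatalytic beta subunits rose as well, by log2 fold changes of 1.20 for Psmb2, 0.96 for Psmb4, 0.78 for Psmb1 and 0.57 for Psmb3. Psmb2 was at 0.473 CPM in wild-type replicate 2 and 3.84 CPM in replicate 5, against between 13.3 and 18.8 CPM in the other 3, and its call was lost without either of those 2 libraries, without PiZ replicates 4 or 5, with only the compared groups, with a muscle term and without both of those libraries.

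In the alpha rings 1 of 7 tested members rose. Whether the classes of subunits differed was not tested. Psma7 was at 403, 257, 363, 338 and 376 CPM in wild type and at 529, 519, 481, 599.5 and 537 CPM in PiZ. These groups did not overlap, and the log2 fold change was 0.62 (SE 0.134, adjusted p = 0.00103). The other 6 alpha genes had log2 fold changes from -0.23 for Psma3 to 0.36 for Psma2, and none passed.

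In the 19S particle, 11 of 17 subunit genes rose. The smallest p was that of a lid gene: Psmd13 was at 156, 57.2, 151, 126 and 75.4 CPM in wild type and at 303, 296, 268, 329 and 242 CPM in PiZ. Every PiZ liver was well above every wild-type liver, a 2.54-fold difference (log2 fold change 1.34, SE 0.197, adjusted p = 8.71e-06). The other lid genes that rose were Psmd14, the deubiquitinase that removes ubiquitin chains from substrates (0.88), Psmd8 (0.88), Psmd6 (0.81) and Psmd3 (0.72). Psmd7, Psmd12 and Psmd11 had log2 fold changes of 0.19, 0.10 and -0.19 and did not pass. In the ATPase ring 5 of 6 genes rose, led by Psmc4, which was at 85.1, 42.1, 115, 96.2 and 55.1 CPM in wild type and at 169, 159.8, 155, 152 and 147 CPM in PiZ. Its ranges did not overlap (log2 fold change 0.99, SE 0.181, adjusted p = 0.000161). Psmc3 (0.80), Psmc6 (0.72), Psmc2 (0.49) and Psmc1 (0.48) rose too. Psmc3 shares 107 of its last 300 bases with Slc39a13 on the other strand. Psmc5, which was at 183, 147, 193, 144 and 150.4 CPM in wild type and at 234, 220.2, 237, 203 and 143 CPM in PiZ, did not pass (adjusted p = 0.143).

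Among the base subunits outside the ATPase ring, Psmd2, a scaffold that receives ubiquitin receptors, was at 221, 103, 213, 168 and 150.1 CPM in wild type and at 239.5, 272, 228, 278 and 277 CPM in PiZ. The groups were separated by a small gap, and the gene passed (log2 fold change 0.60, SE 0.157, adjusted p = 0.00543). Psmd4, a ubiquitin receptor, ranged from 378 to 532 CPM in wild type and from 464 to 631 CPM in PiZ and did not pass (0.26). Psmd1, the other large scaffold, had a log2 fold change of -0.36 that did not pass, and 228 of its last 300 bases are shared with Gm21972 on the same strand. Of the 19S assembly chaperones, Psmd5 was at 14.9, 4.26, 13.2, 12.6 and 17.1 CPM in wild type and at 18.7, 22.6, 23.4, 23.6 and 33.9 CPM in PiZ. It rose by 0.96 (SE 0.288, adjusted p = 0.0141). Psmd10 (0.05) and Psmd9 (-0.31) did not pass.

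None of the 5 immunoproteasome and PA28 genes passed at 6 weeks. Their log2 fold changes were 0.61 for Psmb9, 0.38 for Psmb10, 0.07 for Psmb8, -0.03 for Psme2 and -0.24 for Psme1. Psmb8 was at 21.2, 52.5, 30.6, 34.1 and 31.1 CPM in wild type and at 37.4, 38.4, 32.8, 29.3 and 39.3 CPM in PiZ, so the PiZ values fell inside the wild-type range. The upper end of that range is replicate 2 alone, and 3 of the 5 PiZ livers lay above the other wild-type livers. The activators Psme3 (PA28 gamma, a nuclear cap; 0.13) and Psme4 (PA200; -0.03) did not pass either. Psme3 ranged from 16.6 to 32.8 CPM in wild type and from 27.2 to 40.6 CPM in PiZ.

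**Figure D2:**
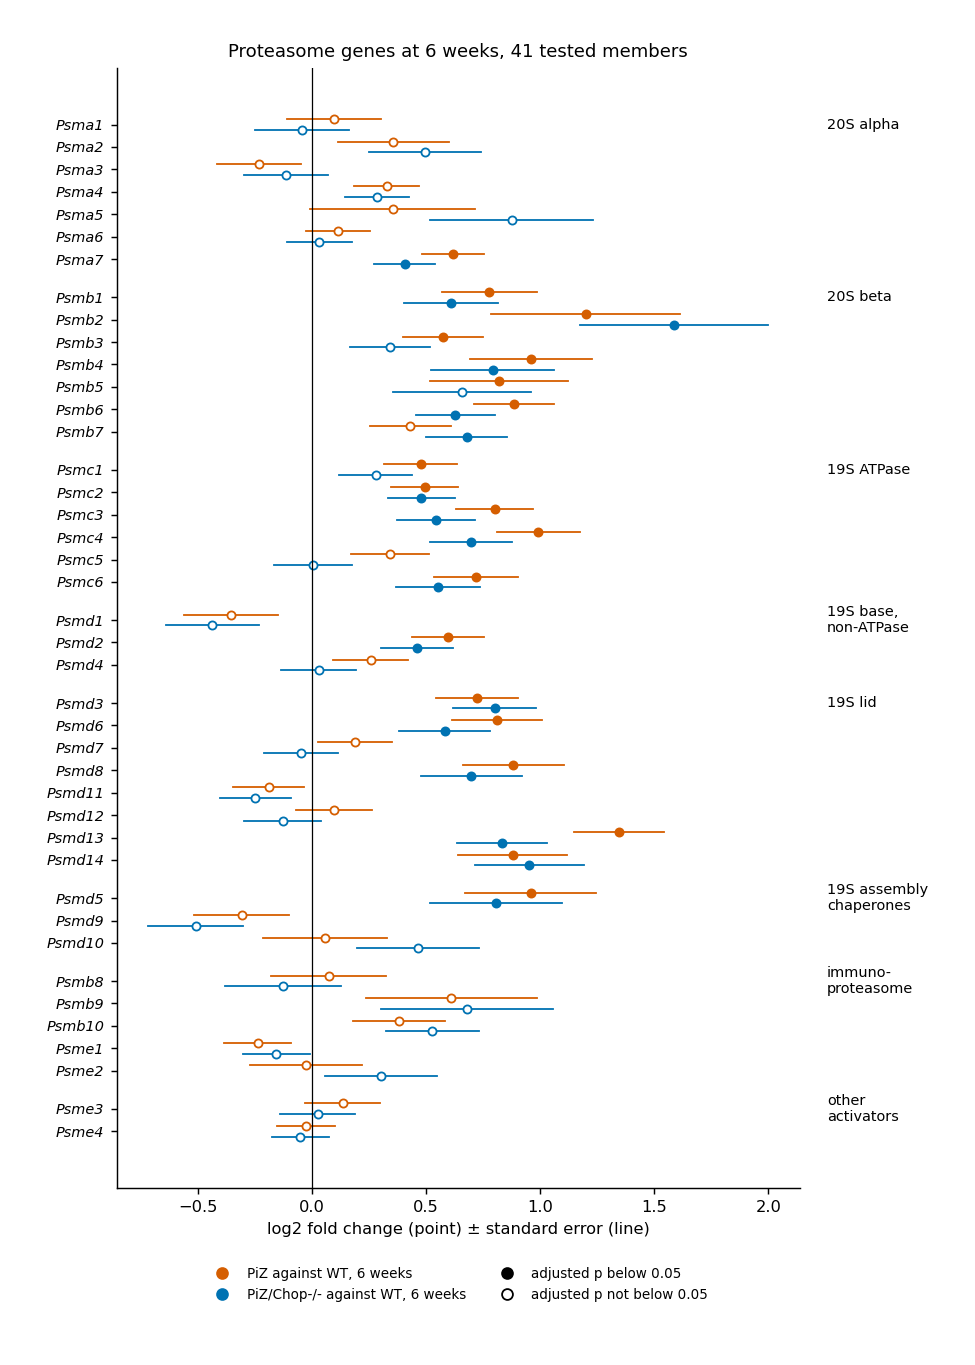
Log2 fold change (horizontal axis, points) with its standard error (lines) for the 41 tested members at 6 weeks, grouped by part of the complex, in PiZ (orange) and PiZ/Chop-/- (blue) against the same wild-type animals. Filled points had an adjusted p below 0.05: 19 in PiZ and 17 in PiZ/Chop-/-, most of them in the beta rings, the ATPase ring and the lid, and none among the immunoproteasome genes.

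The count of 19 was not the same in every setting. It was 9 when only the 10 libraries of both groups entered the fit and 10 with a muscle term added for each animal. No member was called lower in either. Of all genes tested in these fits, 8.63% and 7.35% were called higher and 8.32% and 7.27% lower. Psmd13, Psmc4, Psmb6, Psma7 and Psmc3 were called in all 10 settings tried and in all 10 fits that left out 1 animal. Besides Psmb5 and Psmb2, the calls of Psmc1, Psmb3 and Psmd5 were lost in at least 1 of those 10 fits.

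In GENCODE M21 (mouse build GRCm38, equal to mm10) Psmd13 lies at chr7:140881968-140898643 on the plus strand and Psmc4 at chr7:28041707-28050101 on the minus strand. Psmb6 lies at chr11:70525367-70527858 (plus), Psma7 at chr2:180036374-180042433 (minus) and Psmb5 at chr14:54614119-54618022 (minus). Psmb8, at chr17:34197721-34201454 (plus), and Psmb9, at chr17:34181987-34187764 (minus), lie in the same region. Because many members moved together at 6 weeks, their promoters were examined for the elements named above. Start sites in RefSeq can differ from those in GENCODE. RefSeq windows from 250 bases before to 50 bases after the annotated start (GRCm38.p6) were matched for 38 members, in 41 windows. The letters TGACNNNGC, the core of the antioxidant response element, on either strand, occurred in 6 of the 41 windows (14.6%) and in 12.4% of all 32851 windows. They were found for Psmb5, Psmb6 and Psmc6, of 15 members with a window that rose in PiZ at 6 weeks. They were also found for Psmd12, Psmd9 and Psme4, of 20 with a window that did not pass. The 7 members without a matched window include Psmb1, Psmb2, Psmc3 and Psmd3, which rose. The CCAAT box (CCAAT) occurred in 36.6% of member windows and 37.4% of all windows, and the GC box (GGGCGG) in 56.1% and 35.7%. The letters GAAANNGAA, part of the interferon response element, occurred in 14.6% of member windows and 8.56% of all, and GGGANNNCC, the core of NF-kappa-B sites, in 17.1% and 18.6%. The letters TTCNNNGAA of the gamma-activated site, an element of interferon-responsive promoters, occurred in 4.88% and 8.30%, in the windows of Psmb8 and Psmd2. None of these motifs contains another of them whole. A match is a description of the sequence, and binding was not measured. The windows below show the members with a window that rose and hold the antioxidant response element core. They also show Psmd13, which rose most clearly and holds no such match, and Psmb8, the immunoproteasome gene with a gamma-activated site match. Capitals mark the antioxidant response element core in Psmb5, Psmb6 and Psmc6 (on the other strand in Psmc6) and the gamma-activated site letters in Psmb8.
Psmb5, chr14:54617946-54618245, minus strand: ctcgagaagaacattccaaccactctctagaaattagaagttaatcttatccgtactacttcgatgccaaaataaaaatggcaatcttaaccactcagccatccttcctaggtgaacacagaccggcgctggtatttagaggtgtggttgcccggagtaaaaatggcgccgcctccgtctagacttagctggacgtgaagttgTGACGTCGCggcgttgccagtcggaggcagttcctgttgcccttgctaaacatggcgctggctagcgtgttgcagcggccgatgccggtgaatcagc
Psmb6, chr11:70525107-70525406, plus strand: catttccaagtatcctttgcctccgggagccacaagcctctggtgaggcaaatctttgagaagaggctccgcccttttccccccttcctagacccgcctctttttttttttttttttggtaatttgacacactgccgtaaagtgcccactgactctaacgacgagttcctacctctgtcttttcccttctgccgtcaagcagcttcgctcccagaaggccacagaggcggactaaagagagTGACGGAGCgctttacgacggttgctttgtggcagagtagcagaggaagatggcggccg
Psmc6, chr14:45329574-45329873, plus strand: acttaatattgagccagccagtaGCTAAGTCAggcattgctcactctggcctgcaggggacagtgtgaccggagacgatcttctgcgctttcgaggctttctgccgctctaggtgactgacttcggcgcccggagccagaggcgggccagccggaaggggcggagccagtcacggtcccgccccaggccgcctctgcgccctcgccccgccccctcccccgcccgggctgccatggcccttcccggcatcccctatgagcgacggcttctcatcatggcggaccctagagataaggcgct
Psmd13, chr7:140882144-140882443, plus strand: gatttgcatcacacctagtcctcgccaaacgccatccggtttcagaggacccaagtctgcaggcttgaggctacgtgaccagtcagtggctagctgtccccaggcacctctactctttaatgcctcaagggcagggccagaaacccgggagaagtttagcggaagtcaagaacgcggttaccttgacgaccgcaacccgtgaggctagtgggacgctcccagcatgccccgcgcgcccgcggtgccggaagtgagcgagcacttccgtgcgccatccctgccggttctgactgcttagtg
Psmb8, chr17:34197945-34198244, plus strand: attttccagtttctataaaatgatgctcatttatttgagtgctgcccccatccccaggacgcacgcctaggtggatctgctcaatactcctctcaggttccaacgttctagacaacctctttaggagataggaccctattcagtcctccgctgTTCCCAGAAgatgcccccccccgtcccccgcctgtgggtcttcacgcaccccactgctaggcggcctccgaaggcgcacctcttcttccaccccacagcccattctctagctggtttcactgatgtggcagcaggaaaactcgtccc

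Genes that work with the proteasome were described from lists. Of 14 tested genes for proteasome assembly and associated factors, 3 rose in PiZ at 6 weeks, and 1, Ecpas (-0.58), fell. Those that rose were Txnl1 (0.58), Psmf1, an inhibitor of the core (0.66), and Psmg4, a core assembly chaperone (0.90). Pomp, the maturation factor of the core, and Adrm1, a ubiquitin receptor of the 19S particle, had log2 fold changes of 0.74 and 0.24 and did not pass. Of 7 tested genes for the transcription of subunits, the small Maf partners Maff (2.29) and Mafk (1.06) rose. The transcripts of Nfe2l1 (-0.09) and Nfe2l2 (-0.16) did not pass, and their proteins were not measured. Of 20 ubiquitin and shuttle genes, 5 rose and 2 fell; Sqstm1 (1.21), Ubxn4 (0.97), Nploc4 (1.02) and Ubb (1.20) had the smallest p-values. Of 20 ER-associated degradation genes, which carry misfolded proteins out of the ER toward the proteasome, 10 rose and 0 fell, led by Derl1 (1.37), Derl3 (5.61), Sel1l (0.83) and Edem2 (1.16). The median over that list was 0.55.

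Macrophage markers moved with the members. All 7 rose in PiZ at 6 weeks, and their summed level was between 389 and 524 CPM in PiZ, between 247 and 404 CPM in PiZ/Chop-/- and between 94.1 and 156 CPM in wild type. The hepatocyte sum was between 35077 and 47173 CPM in PiZ and between 30581 and 76603 CPM in wild type, and 2 of its 5 genes fell. The part of these cell types in the change of the subunits was not tested.

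PiZ/Chop-/- livers were compared with both other genotypes at 6 weeks to see how far the change depended on Chop. Against PiZ, 0 of 41 members passed, where 6.78% of all tested genes were called in either direction. An unadjusted p below 0.05 was found for 1 member and for 2285 of all 10877 tested genes. DESeq2 also called 0. The median log2 fold change was -0.14 over members and -0.01 over all genes, and 29 of the 41 values were negative. The member with that p was Psmd13, at 172, 164, 186, 213 and 273 CPM in PiZ/Chop-/-. One of these livers lay inside the PiZ range of 242 to 329 CPM and 4 lay below it, and the log2 fold change was -0.51 (SE 0.194, adjusted p = 0.113). It passed in 3 alternatives, at -0.51 in each: when only the 2 groups were fitted (adjusted p = 0.0332), without the muscle-rich wild-type libraries (adjusted p = 0.0336) and without wild-type replicates 2 and 5 (adjusted p = 0.00984). Psmc5 and Psmc4 followed at -0.34 and -0.29, without a call.

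Against the same wild-type animals, 17 of 41 members rose in PiZ/Chop-/- at 6 weeks and 0 fell, beside 9.36% of all tested genes called higher and 10.1% lower. CPM ranges lay above wild type without overlap for 9 members, against 4.84% of all tested genes. The median over members was 0.46 and over all genes -0.03. The largest among the 17 were Psmb2 (1.59), Psmd14 (0.95), Psmd13 (0.83), Psmd5 (0.81) and Psmd3 (0.80). Psmb6 was at 205, 192, 219.6, 233 and 266 CPM, all above the wild-type animals (log2 fold change 0.63, SE 0.174, adjusted p = 0.0122). Psmb7 was at 200.4, 182, 198, 159.7 and 142 CPM and passed here (0.68, adjusted p = 0.00825), although its range overlapped that of wild type. Psmc4 (0.70), Psmb4 (0.79), Psmb1 (0.61), Psmd8 (0.70), Psmc6 (0.55), Psmc3 (0.54), Psmd6 (0.58), Psmc2 (0.48), Psmd2 (0.46) and Psma7 (0.41) also rose. Psmb5 (0.66), Psmb3 (0.34) and Psmc1 (0.28) did not pass, and neither did the 5 immunoproteasome genes, with values from -0.16 for Psme1 to 0.68 for Psmb9. Psmb10 passed without wild-type replicate 3 (0.65, adjusted p = 0.0320) or without replicate 4 (0.61, adjusted p = 0.0464).

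This second count was less stable than the first. Without wild-type replicates 2 and 5, the libraries with the most reads outside genes, 2 members were called higher, Psmd3 and Psmd13, and 1, Psmd9, lower. In that fit 4.73% of all genes tested were called higher and 3.82% lower, and the median over members was 0.29. Without both muscle-rich libraries 7 members were called higher and 1, Psmd9, lower, beside 6.14% and 5.12% of all genes tested. The median over members was then 0.36. The count was 1 when only the 10 libraries compared were fitted and 6 with a term for the clock genes Dbp and Arntl. With the muscle term it was 5, of which Psmd9 was lower. Of all genes tested in these fits, 2.98%, 4.4% and 4.96% were called higher and 2.8%, 4.43% and 4.16% lower. The median over members was 0.46, 0.47 and 0.41 in the same order. The count was 10 without wild-type replicate 2 (9 higher, and Psmd9 lower), without wild-type replicate 5 or without PiZ/Chop-/- replicate 5. It was 11 without PiZ/Chop-/- replicate 4. No member was called in all 10 settings tried. Psmd14 was called in all but the fit without wild-type replicates 2 and 5, and Psmd3 in all but the fit of only the compared groups. Both were called in all 10 fits that left out 1 animal. Dbp (3.86) and Arntl (-1.92) both passed in this comparison, and the part of sampling time was not tested.

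Of the listed partners, Pomp rose in PiZ/Chop-/- against wild type at 6 weeks (1.03, SE 0.340, adjusted p = 0.0325), with Txnl1 (0.35), while Ecpas fell (-0.67). Maff (2.47) and Mafk (1.05) rose, and Nfe2l1 (-0.10) and Nfe2l2 (-0.40) did not pass. Of 20 ER-associated degradation genes, 8 rose and 0 fell, and of 20 ubiquitin and shuttle genes 3 rose (Ubb 1.17, Nploc4 0.69 and Rps27a 0.91).

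At 36 weeks no constitutive subunit passed in either transgenic genotype. In PiZ against wild type 0 of 41 members were called, beside 2.43% of all tested genes, with a median of 0.14 over members. Of the members, 3 had an unadjusted p below 0.05 (Psmb8, Psmd13 and Psmb9), as had 1469 of all 10877 tested genes. DESeq2 called 1, Psmb8. Psmd13 was at 120.0, 134, 123 and 151 CPM in wild type and at 217, 223, 189, 171 and 161 CPM in PiZ. All PiZ livers were still above all wild-type livers, but the log2 fold change of 0.54 (SE 0.208) had an adjusted p of 0.196. It passed when only the 9 libraries compared were fitted and without wild-type replicates 2 and 5 at 6 weeks (adjusted p = 0.0223 in both). Psmb6 lay between 146 and 173 CPM in wild type and between 168 and 239.6 CPM in PiZ (0.30), and Psmc4 between 74.9 and 112 CPM and between 97.7 and 136 CPM (0.18). Psmb8 had the smallest p: it was at 16.4, 32.6, 27.1 and 46.4 CPM in wild type and at 43.0, 55.3, 59.5, 68.6 and 68.1 CPM in PiZ. Only the lowest PiZ liver lay within the wild-type range, and the log2 fold change of 0.94 (SE 0.269) had an adjusted p of 0.0562. It passed in 7 of the 10 other settings, with adjusted p-values from 0.0233 to 0.0492 in those 7. Psmb9 was at 5.25, 6.22, 13.5 and 8.04 CPM in wild type and at 22.3, 16.8, 15.4, 14.5 and 9.95 CPM in PiZ, which overlapped in 1 animal on each side (0.94, SE 0.398, adjusted p = 0.266).

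Against wild type at 36 weeks, 2 of 41 members rose in PiZ/Chop-/-, both immunoproteasome proteases, beside 2.81% of all tested genes called higher. Psmb8 was at 75.0, 90.6, 91.2, 50.5 and 35.2 CPM in PiZ/Chop-/-. All but the lowest of these livers were above the highest wild-type liver, and the log2 fold change was 1.16 (SE 0.270, adjusted p = 0.0110). Psmb9 was at 17.3, 35.1, 41.5, 8.63 and 11.8 CPM, where replicates 1, 2 and 3 were above all wild-type livers and replicates 4 and 5 were within their range (1.47, SE 0.397, adjusted p = 0.0274). Psmb10 was at 27.6, 41.2, 27.1 and 39.5 CPM in wild type and at 56.4, 70.5, 47.4, 47.8 and 46.7 CPM in PiZ/Chop-/-. Its ranges did not overlap, yet its log2 fold change of 0.67 (SE 0.216) did not pass (adjusted p = 0.0756). It passed with DESeq2 (0.66, adjusted p = 0.0440) and without the muscle-rich wild-type libraries at 6 weeks (0.67, adjusted p = 0.0335) or without replicates 2 and 5 of that group (0.67, adjusted p = 0.0263), which gave a count of 3 in each. Psme2 (0.56) and Psme1 (0.30) did not pass; Psme1 was at 317, 294, 254, 243 and 194 CPM in PiZ/Chop-/- and between 189 and 259 CPM in wild type. All 14 tested genes of the 20S core and all 17 of the 19S particle had positive values, with medians of 0.24 and 0.22, and none was called. No member was called when only the 9 libraries compared were fitted or without wild-type replicate 1. One member was called without wild-type replicates 2 or 4, or without PiZ/Chop-/- replicates 2 or 3: the call of Psmb8 was kept and that of Psmb9 was lost. Replicate 3, which had the highest values of Psmb8 and Psmb9, is the muscle-rich library of this group. Without it the log2 fold change of Psmb9 was 1.15 (adjusted p = 0.116) and that of Psmb8 1.03 (adjusted p = 0.0351).

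**Figure D3:**
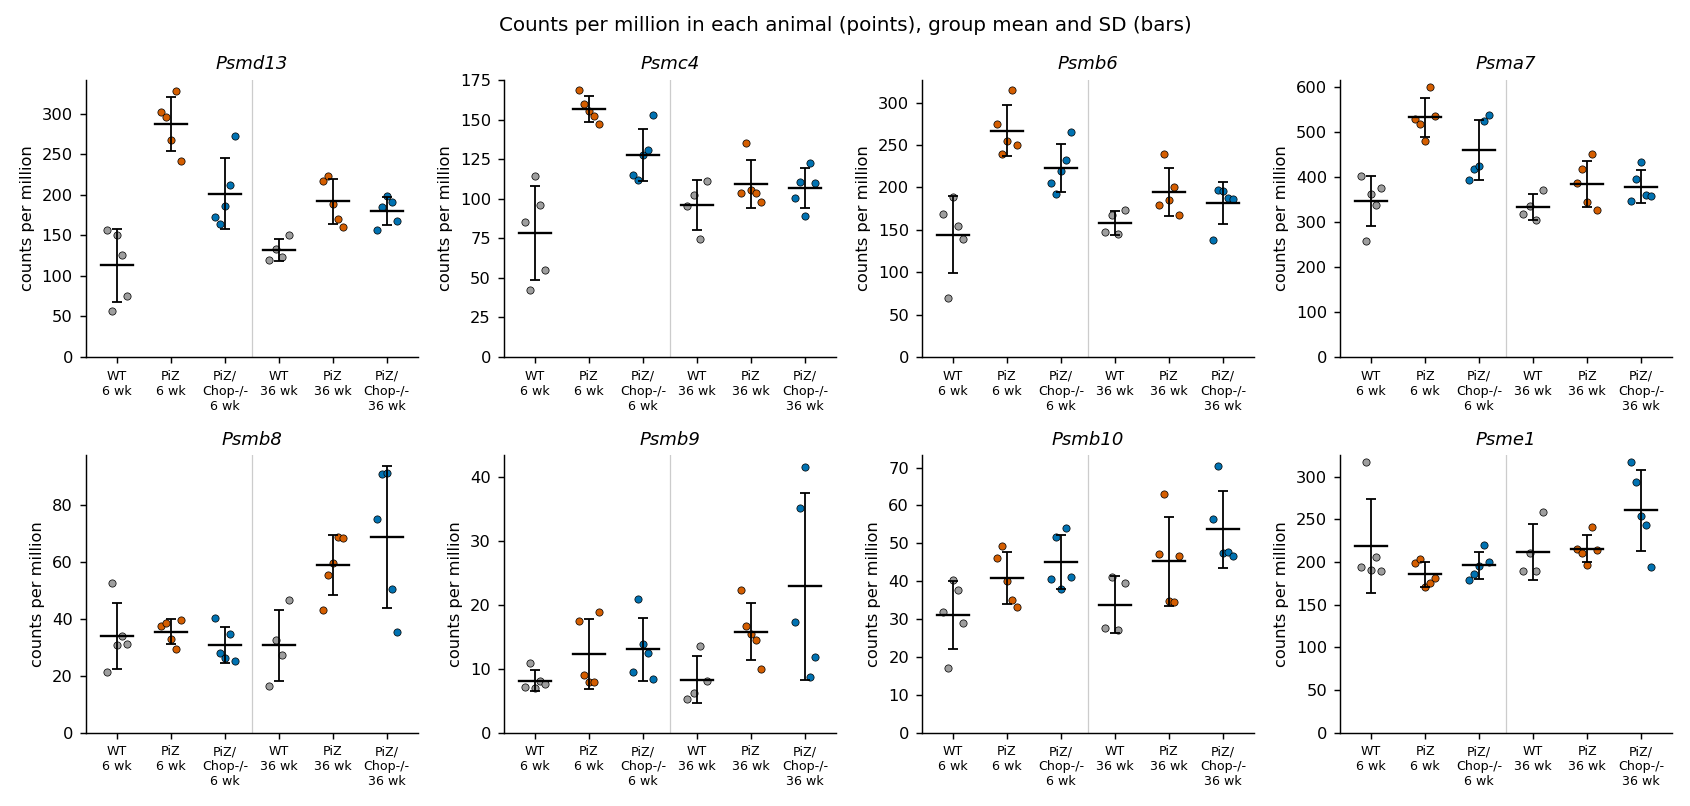
CPM (vertical axis, from 0) of 4 constitutive members (Psmd13, Psmc4, Psmb6, Psma7) and 4 immunoproteasome and PA28 members (Psmb8, Psmb9, Psmb10, Psme1) in each liver (points), with group mean (line) and SD (bar), by genotype and age. The group means of the constitutive members were highest in PiZ at 6 weeks (Psmd13 from 242 to 329 CPM), whereas the highest single values of Psmb8 and Psmb9 were those of PiZ/Chop-/- replicates 2 and 3 at 36 weeks.

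Interferon-stimulated genes were also higher in this comparison. Of 19 tested, 14 rose in PiZ/Chop-/- against wild type at 36 weeks and 0 fell, with a median of 1.64, led by Gbp7 (1.64), Irf7 (2.35), Gbp3 (2.47) and Usp18 (2.63). Their summed level was 1832, 1523, 1573, 633 and 732 CPM in PiZ/Chop-/- replicates 1 to 5, from 728 to 868 CPM in PiZ and from 491 to 669 CPM in wild type. The replicates with the highest interferon sums were those with the highest immunoproteasome sums, 505, 548 and 517 CPM against 379.9 and 339 CPM in the other 2. Irf1, a known activator of immunoproteasome genes, had a log2 fold change of 0.70 that did not pass. Of 13 genes for MHC class I antigen presentation, which uses peptides cut by the immunoproteasome, 4 rose (H2-D1 1.12, Calr 0.92, Tapbp 0.73 and B2m 0.55). Tap1, whose start lies head to head with Psmb9, had a log2 fold change of 0.94 and did not pass (adjusted p = 0.0722). Macrophage markers summed to between 177 and 548 CPM in PiZ/Chop-/- and between 85.7 and 227 CPM in wild type at 36 weeks, with 3 of 7 called higher. T cell and NK cell markers, of which 0 of 8 were abundant enough to test, summed to between 3.29 and 5.50 CPM in wild type at that age. They summed to between 7.17 and 16.6 CPM in PiZ, above all wild-type livers, and to between 3.91 and 11.5 CPM in PiZ/Chop-/-. B and plasma cell markers lay between 16.5 and 33.6 CPM in wild type, 9.81 and 179 CPM in PiZ, and 19.2 and 123 CPM in PiZ/Chop-/-. The part of macrophages or lymphocytes in the rise of Psmb8 and Psmb9 was not tested. At 6 weeks the interferon sum lay between 729 and 920 CPM in PiZ/Chop-/-, 616 and 701 CPM in PiZ and 564 and 767 CPM in wild type. In the same order, the immunoproteasome sum lay between 311 and 357, 278 and 329, and 293 and 422 CPM. The MHC class I sum lay between 7760 and 8776, 8543 and 9411, and 6332 and 8006 CPM.

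Between both transgenic genotypes at 36 weeks, 0 of 41 members were called, beside 0.0368% of all tested genes. By edgeR 0 members had an unadjusted p below 0.05, against 442 of all 10877 tested genes, and DESeq2 called 0 members. The 5 immunoproteasome values were all positive, from 0.21 for Psmb8 to 0.54 for Psmb9, with standard errors of 0.244 and 0.347.

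Each inducible protease subunit was also set against the constitutive subunit it replaces, within the same liver, as a log2 ratio of CPM. Because 3′ counts are not scaled to the transcript, only differences of this ratio between groups are read. For Psmb8 over Psmb5 the mean log2 ratio was 0.39 ± 0.83 (SD, n = 5) in wild type, -0.30 ± 0.54 (n = 5) in PiZ and -0.30 ± 0.72 (n = 5) in PiZ/Chop-/- at 6 weeks. At 36 weeks it was 0.16 ± 0.50 (n = 4), 1.03 ± 0.55 (n = 5) and 1.11 ± 0.67 (n = 5). The mean ratio was therefore highest in the older transgenic groups. Every PiZ liver at 36 weeks (0.47 to 1.88) lay above every PiZ liver at 6 weeks (-1.21 to 0.07). Wild type at 36 weeks (-0.51 to 0.59) overlapped both PiZ and PiZ/Chop-/- (0.37 to 2.04) of that age. Between these ages in PiZ, Psmb5 had a log2 fold change of -0.64 and Psmb8 of 0.73, both uncalled with all libraries fitted. Differences of the ratios between groups were not tested. For Psmb9 over Psmb6 the wild-type means were -3.98 ± 0.80 (n = 5) at 6 weeks and -4.23 ± 0.59 (n = 4) at 36 weeks. The means of this ratio in PiZ were -4.46 ± 0.64 at 6 weeks and -3.60 ± 0.39 at 36 weeks (n = 5 each), and in PiZ/Chop-/- -4.09 ± 0.63 and -3.17 ± 0.91 (n = 5 each). For Psmb10 over Psmb7 they were -1.85 ± 0.35 and -1.60 ± 0.30 in PiZ, and -1.95 ± 0.35 and -1.33 ± 0.33 in PiZ/Chop-/- (n = 5 each). In wild type the latter ratio was -1.78 ± 0.08 (n = 5) at 6 weeks and -1.87 ± 0.39 (n = 4) at 36 weeks. Psmb10 over Psmb7 carries the uncertainty of Psmb7 named above. Wild-type replicate 2 at 6 weeks was highest of its group for the first 2 ratios, at 1.75 and -2.60.

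**Figure D4:**
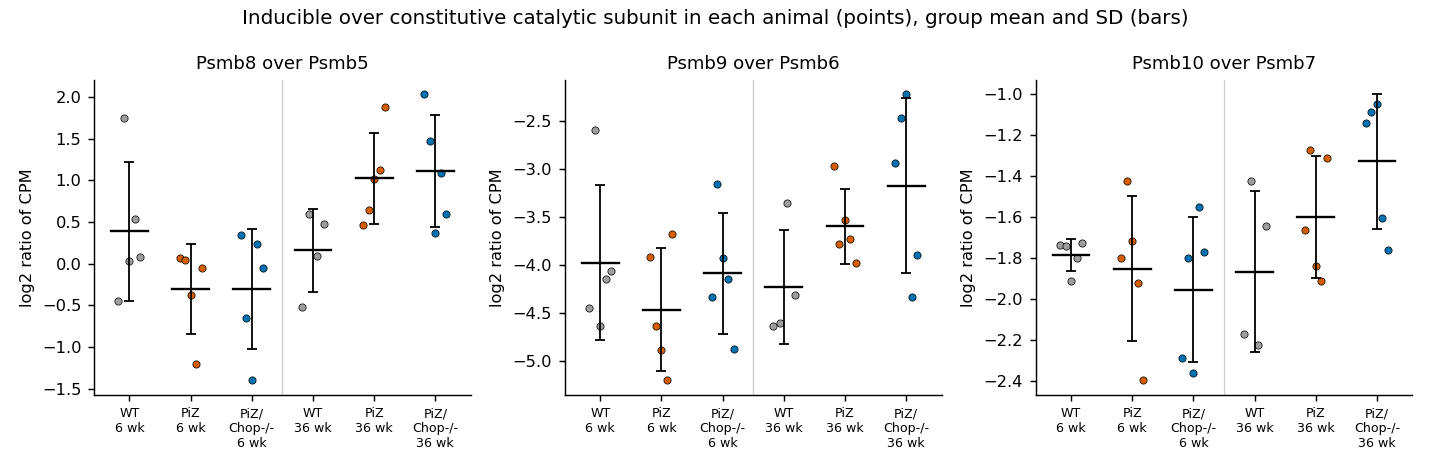
Log2 ratio of CPM (vertical axis) of each inducible protease subunit over the constitutive subunit it replaces, in each liver (points), with group mean (line) and SD (bar), by genotype and age. In PiZ the Psmb8 over Psmb5 ratio lay between -1.21 and 0.07 at 6 weeks and between 0.47 and 1.88 at 36 weeks.

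The age comparisons within genotypes use the same animals as the comparisons above. In wild type, 0 of 41 members were called between 36 and 6 weeks, beside 3.69% of all tested genes. An unadjusted p below 0.05 was found for 5 members and for 2235 of all 10877 tested genes. DESeq2 called 1 member, downward. The median over members was 0.03, with the sign turning to -0.05 without the muscle-rich libraries and to -0.11 without replicates 2 and 5, where edgeR again called 0 members in each, and to -0.03 with a replicate block. The smallest p was that of Psmd1 (-0.70, SE 0.220, adjusted p = 0.0669).

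In PiZ, 33 of 41 members had negative values at 36 against 6 weeks, with a median of -0.35 over members and -0.01 over all genes. One member passed, downward, beside 2.26% of all tested genes called lower. This was Psma7, at 387, 418, 344, 451 and 327 CPM at 36 weeks, all below the 6-week range of 481 to 599.5 CPM (-0.47, SE 0.134, adjusted p = 0.0337). All 17 tested 19S genes were negative, from -0.58 for Psmd13 to -0.14 for Psmd1, and so were all 7 constitutive beta genes. An unadjusted p below 0.05 was found for 20 of the 41 members and for 1990 of all 10877 tested genes. The count changed with the libraries fitted: 16 members were called (15 lower and 1 higher) when only the 10 PiZ libraries were fitted, 11 (10 lower and 1 higher) without the muscle-rich wild-type libraries, and 13 (12 lower and 1 higher) without wild-type replicates 2 and 5. Of all genes tested, 6.33%, 3.76% and 4.16% were called lower in these 3 fits. In the fit of the 10 PiZ libraries Psmd13 (-0.58, adjusted p = 0.00449) and Psmc4 (-0.53, adjusted p = 0.00545) were among the lower members. The higher member in each of these fits was Psmb8 (0.73 in each). The PiZ livers held between 29.3 and 39.3 CPM of Psmb8 at the younger age and between 43.0 and 68.6 CPM at the older, without overlap, and in the fit of all libraries its log2 fold change of 0.73 (SE 0.248) had an adjusted p of 0.0820. The call of Psma7 was lost in 7 of 10 fits that left out 1 PiZ animal, namely without 6-week replicates 1, 2, 4 or 5 or 36-week replicates 1, 3 or 5. Macrophage markers in PiZ summed to between 389 and 524 CPM at the younger and between 190.6 and 317 CPM at the older age, without overlap, and 2 of 7 fell, Clec4f (-1.11) and Marco (-2.09). Their part in the age difference of the members was not tested. The clock genes Dbp (2.30) and Arntl (-1.26) did not pass in this comparison, and the call of Psma7 was lost with the clock term. A part of sampling time was not tested here either.

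The older PiZ/Chop-/- livers differed from the younger ones in 1 member, Psmb8, which rose, beside 0.984% of all tested genes called higher. It went from 40.1, 28.1, 26.4, 34.7 and 25.1 CPM to the 36-week values given above, and 1 older liver lay within the younger range (1.15, SE 0.251, adjusted p = 0.0116). Without 6-week replicate 5 its adjusted p was 0.0539. Psmb9 (0.82), Psme1 (0.41), Psmb10 (0.25) and Psme2 (0.21) were positive and did not pass. Without wild-type replicates 2 and 5 at 6 weeks 4 members were called, Psmb8 and Psme1 higher and Psmb1 and Psmd3 lower. Of all genes tested in that fit, 2% were called higher and 2.14% lower. The constitutive beta genes were all negative, from -0.45 for Psmb2 to -0.09 for Psmb3, and none passed.

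**Figure D5:**
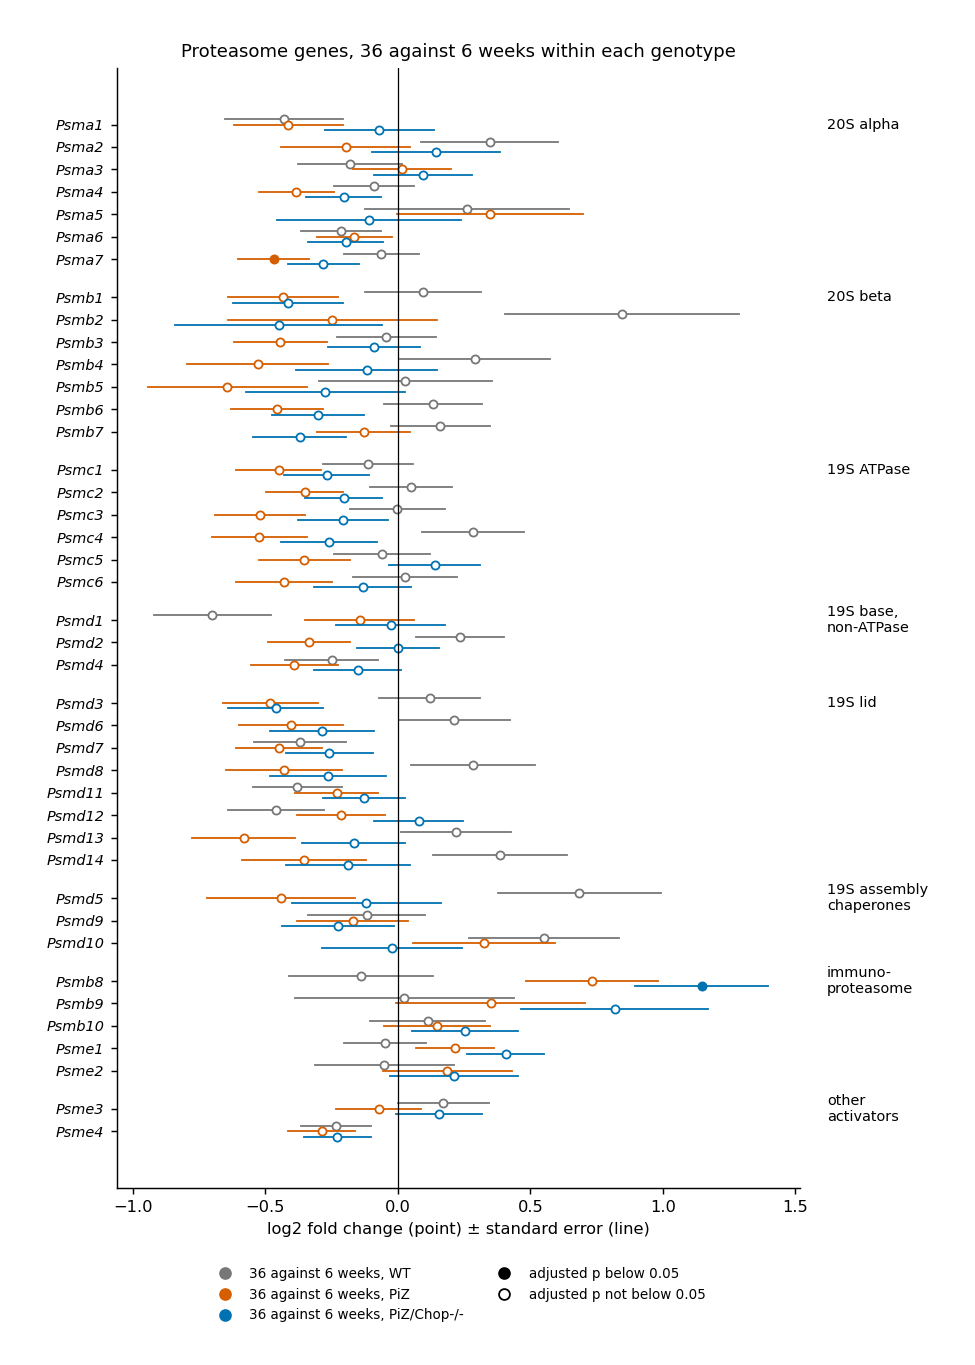
Log2 fold change between 36 and 6 weeks (horizontal axis, points) with its standard error (lines) for the 41 tested members, grouped by part of the complex, in wild type (grey), PiZ (orange) and PiZ/Chop-/- (blue). In PiZ all 17 19S subunit genes lay below 0, with Psma7 (-0.47) the member called, and all 5 immunoproteasome genes lay above 0 in both transgenic genotypes, with Psmb8 (1.15) called in PiZ/Chop-/-.

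Whether the effect of genotype differed between ages was tested directly. For PiZ against wild type, 0 of 41 members passed, beside 2.41% of all tested genes. Of the members, 13 had an unadjusted p below 0.05, as had 1947 of all 10877 tested genes. DESeq2 called 1 member, Psmc4. Without the muscle-rich libraries, or without wild-type replicates 2 and 5 at 6 weeks, edgeR again called 0. The largest differences were those of Psmd5 (-1.12, SE 0.415) and Psmb2 (-1.09), and the smallest p was that of Psmc4 (-0.81, SE 0.262, adjusted p = 0.0874). Psmd13 was at -0.80 (SE 0.283, adjusted p = 0.121) and Psmb8 at 0.87 (SE 0.367, adjusted p = 0.200). A smaller PiZ effect on the constitutive subunits at 36 weeks is thus the direction of 10 of 14 20S and 14 of 17 19S genes, without a member past the threshold. For PiZ/Chop-/- against PiZ, 0 of 41 passed by edgeR, beside 1.43% of all tested genes, and DESeq2 called 0. By edgeR 0 members had an unadjusted p below 0.05, against 1511 of all 10877 tested genes.

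The remaining 4 of the 45 members were too low to test. Psma8, a testis alpha subunit, was between 0 and 3.02 CPM, with at most 8 reads in a library. Psmb11, the thymus beta subunit, had 0 reads in all 29 libraries, so a level under the floor given above could not have been seen. Psme2b, a near copy of Psme2, was between 0 and 5.37 CPM, and reads could be split between these copies, which makes Psme2 uncertain to that extent. Psmc3ip, a recombination factor named for a subunit without being one, was between 0 and 1.05 CPM.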

How the data were processed

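Liver RNA of 29 mice was sequenced from transcript 3′ ends (QuantSeq, single-end reads of 100 bases, per the labels' protocols). The deposited values are raw counts per Ensembl gene, with 5 summary lines that were left out of every test. The submitters' processing notes name the build mm10; aligner, counting program, annotation and strand setting are not given in the sources used here. Symbols came from GENCODE M21, which 30934 of 31053 identifiers matched.

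Counts were analysed with edgeR 4.0.16 (R 4.3.3): filterByExpr (minimum count 10, minimum total 15) kept 10877 genes, libraries were scaled by TMM, and quasi-likelihood tests with 1 coefficient per group used all 29 libraries. There were 11 comparisons, with two-sided p-values adjusted by Benjamini-Hochberg over all tested genes and a threshold of 0.05. Log2 fold changes of single genes are edgeR estimates with standard errors, and log2 CPM used a prior count of 2. Single-animal values are given for the immunoproteasome genes, their constitutive counterparts and, in each class, the member with the smallest p in PiZ against wild type or PiZ/Chop-/- against PiZ at 6 weeks; Psmb2 was added after its values were seen. Listed genes outside the complex are named where called, at most 4 per list and comparison by smallest p, besides a few that are always given where discussed; 1 of those is not reported here. Members and lists were chosen with earlier results of these data known. Alternatives were median-of-ratios size factors, DESeq2 1.42.0, other filters, the compared groups alone, a replicate block, muscle and clock covariates, and each animal or 2 wild-type libraries left out. The workflow was tested on simulated data. Floors and counts cover counting error only, since the labels state no molecular identifiers.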

Additional observations from a re-analysis of the deposited data

Results flagged for a closer look

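Among 120 sets of 4 or 5 animals, for 17 members and 3 summed classes in 6 groups, 11 values, from 7 animals, lay far from the rest of their group; chance gives about 1 in 20 groups. Wild-type replicate 2 at 6 weeks accounts for 4 of them: its 20S core sum was 1165 CPM (the others from 1737 to 1950.5), its immunoproteasome and PA28 sum 422 CPM (293 to 329), Psme1 317 CPM (189 to 206) and Psme3 16.6 CPM (28.6 to 32.8). This is the library with the most reads outside genes and the highest muscle markers; their part in these values was not tested. In PiZ at 6 weeks, Psmb5 was at 68.7 CPM in replicate 4 (35.6 to 42.6 in the others) and Psme3 at 40.6 CPM in replicate 2 (27.2 to 30.4). In PiZ/Chop-/- at 6 weeks, replicate 3 stood apart for Psme2, at 69.4 CPM (35.2 to 42.1), and for Psme3, at 24.3 CPM (28.9 to 30.6). At 36 weeks, Psmc4 was at 136 CPM in PiZ replicate 2 (97.7 to 106), and in PiZ/Chop-/- Psmb5 was at 70.5 CPM in replicate 3 (17.7 to 32.1) and Psmb6 at 138 CPM in replicate 1 (186 to 197).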

How the results depend on the processing

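Every count of called members was recomputed under 8 other settings, without both muscle-rich wild-type libraries at 6 weeks, without the 2 wild-type libraries of that age with the most reads outside genes (replicates 2 and 5; both chosen after seeing the data) and with each animal left out; no called value of a named member changed sign. In PiZ against wild type at 6 weeks the count of 19 became 9 with only the compared groups and 10 with the muscle covariate, 14 without replicates 2 and 5, was between 16 and 19 in the other 7 settings, and ranged from 16 to 20 with 1 animal left out. In PiZ/Chop-/- against wild type at 6 weeks the count of 17 became 1 with only the compared groups, 5 with the muscle covariate, 6 with the clock covariate, 8 without the muscle-rich libraries and 3 without replicates 2 and 5, and ranged from 10 to 18 with 1 animal left out; these counts include 1 member called lower, Psmd9, with the muscle covariate, without the muscle-rich libraries, without wild-type replicates 2 and 5 and without wild-type replicate 2 or PiZ/Chop-/- replicate 3, and Psmd1 without wild-type replicate 1, which gave the 18. The 20S and 19S counts followed: 3 and 5 in PiZ with only the compared groups and 3 and 7 with the muscle covariate (from 7 and 11), and in PiZ/Chop-/- 0 and 1, 1 and 3, 2 and 4 (clock), 3 and 4 without the muscle-rich libraries and 0 and 2 without replicates 2 and 5 (from 6 and 10). In PiZ against wild type at 36 weeks the count of 0 became 2 with only the compared groups or without replicates 2 and 5 (Psmb8 and Psmd13) and 1 (Psmb8) with DESeq2, with the block, with either covariate or without the muscle-rich libraries, and ranged from 0 to 1 with 1 animal left out. In PiZ/Chop-/- against wild type at 36 weeks the count of 2 became 0 with only the compared groups and 3 (with Psmb10) with DESeq2, without the muscle-rich libraries or without replicates 2 and 5, and ranged from 0 to 2 with 1 animal left out. In PiZ/Chop-/- against PiZ it was 1 at 6 weeks with only the compared groups, without the muscle-rich libraries or without replicates 2 and 5 and otherwise 0, also with any 1 animal left out, and it was 0 in every setting at 36 weeks. With age in PiZ the count of 1 became 5 with DESeq2, 16 with only the compared groups, 11 without the muscle-rich libraries, 13 without replicates 2 and 5 and 0 without the low-count filter or with the clock covariate, and ranged from 0 to 2; in wild type DESeq2 called 1, and 1 animal left out gave 0 to 1; in PiZ/Chop-/- the range was 0 to 1, and 4 were called without replicates 2 and 5. For the difference between ages DESeq2 called 1 in PiZ against wild type, where 1 animal left out gave 0 to 1, and 0 were called in PiZ/Chop-/- against PiZ throughout. Of 3654 recomputed values of named members that were not called, 41 passed and 178 changed sign. The share of all tested genes called also moved over the 10 settings. Against wild type at 6 weeks, 6.45% to 13.7% were called higher in PiZ and 2.98% to 11% in PiZ/Chop-/-. Against wild type at 36 weeks, these shares were 0.759% to 3.26% and 1.41% to 4.17%. The cause of these shifts was not tested. Fits of the compared groups use fewer libraries, and their spread is that of those libraries alone.

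The labels give replicate numbers in each group, and nothing in them says that a number marks a shared litter or day. In no comparison did the correlation of deviations exceed 0.1 for every same-numbered pair, so the numbers were not taken as pairs; it came closest in PiZ/Chop-/- against wild type at 36 weeks, at 0.113, 0.0754, 0.150 and 0.149, where all 4 animals correlated best with their own number, a hint from the data alone; with a replicate block the counts at 6 weeks were 19 in PiZ and 16 in PiZ/Chop-/- against wild type, and at 36 weeks 1 in PiZ (Psmb8) and 2 in PiZ/Chop-/-. Depth limits the rarest members most, with a floor of up to 1.42 CPM.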
